A study of Homo sapiens with 12 samples.

Results

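The RNA contacts of FOX2 were compared with those of hnRNP M in wild-type (WT) H9 cells, from 4 of the 12 libraries of the study: 2 FOX2 and 2 hnRNP M libraries, chosen by the protein and genotype in their labels. The other 8 libraries entered the tests only through a shared estimate of the spread and the filter that chose which transcripts and introns were tested. The P-KO contrasts, where given, are the exception. H9 is an established human embryonic stem cell line. The study measured 3 proteins (FOX2, TDP43 and hnRNP M) by iCLIP in WT and P-KO cells, with 2 libraries per protein and genotype that the series design text calls biological replicates. All cells were crosslinked with ultraviolet light at 400 mJ per square centimetre. RNA was recovered with a Bethyl antibody to RBM9 (RBFOX2, written FOX2) or with the 1D8 antibody to hnRNP M1-4 from Santa Cruz. Each protein was recovered with its own antibody, so protein and antibody cannot be told apart. P-KO cells, labelled H9 SPA PKO, gave the same contrast in other libraries, and the labels used here name no clone. The labelled cell type was not checked against marker genes, because the lists name Ensembl transcripts and no table pairing these with gene symbols was used here.

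As background, FOX2 is a splicing regulator of the RBFOX family whose RNA recognition motif prefers the element GCAUG. It acts mostly from introns flanking regulated exons, and it is abundant in embryonic stem cells. hnRNP M is an abundant nuclear protein with several RNA recognition motifs that also regulates splicing and is known for GU-rich elements. In iCLIP the reverse transcriptase tends to stop at the crosslinked nucleotide, so the start of a cDNA marks a site of contact. A contact count reflects binding, crosslinking and the abundance of the RNA together. Here both proteins were measured in the same cell line, but no RNA abundance was measured.

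Each deposited list gives single nucleotides, each with a transcript, a count and, for intronic positions, the number of the intron. A listed count was read as covering 5 nt on both sides, so positions were kept from the highest count downwards and at least 11 nt apart on a strand. The kept positions are called windows, and their summed counts are called window counts. The FOX2 libraries held 79311 and 98444 windows with 218733 and 288698 window counts. The hnRNP M libraries held 7299 and 32394 windows with 61625 and 123482 window counts. Windows fell in 17663 and 20343 transcripts for FOX2, and in 3776 and 9134 for hnRNP M. Levels are window counts divided by the library's total and multiplied by 1000000 (CPM). They make no correction for transcript length and are compared only between libraries.

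hnRNP M replicate 1 stood apart from the other 3 libraries. Its most frequent count per window was 9, against 3 in hnRNP M replicate 2 and 2 in both FOX2 libraries. Windows of 8 to 10 counts made up 45.5% of its list, against 1.03% in hnRNP M replicate 2 and 0.870% and 1.20% in the FOX2 libraries. The mean count per window was 8.44 and 3.81 for hnRNP M and 2.76 and 2.93 for FOX2. Both hnRNP M values were the higher ones, and with 2 libraries against 2 the exact two-sided permutation p of 0.333 is the smallest that the design allows. The lists hold only positions that met criteria the sources used here do not state. A transcript without a line is therefore described as listed at 0, with no fold and no upper limit. Chi-square over transcripts divided by its degrees of freedom was 7.95 between the FOX2 replicates and 9.42 between the hnRNP M replicates, so neither pair was counted as 1 library deposited again.

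Both proteins were mostly intronic, and over all windows their broad distributions had close values. Introns held 89.6% and 87.4% of FOX2 window counts and 94.9% and 88.2% of hnRNP M counts (exact two-sided permutation p = 0.667). The difference of the means was -3.03 percentage points, and it was 0.318 points without hnRNP M replicate 1. With only windows of at least 5 counts it was -16.5 points, FOX2 being the less intronic. The first intron held 22.6% and 22.4% of the intronic FOX2 counts and 22.7% and 23.3% of the intronic hnRNP M counts, so that both hnRNP M values were slightly higher. The 10 highest transcripts held 5.03% and 6.87% of FOX2 counts and 5.38% and 8.18% of hnRNP M counts (exact two-sided permutation p = 0.667), and these ranges overlapped. Mitochondrial and GL000220 positions held 1.38% and 3.33% of FOX2 counts and 0.646% and 5.02% of hnRNP M counts.

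Single windows were rarely shared, also between replicates of one protein. Of the windows of FOX2 replicate 1, 6.80% overlapped one of replicate 2 by at least 1 nt, and 5.60% of replicate 2 did so with replicate 1. For hnRNP M, the shares were 1.49% of replicate 1 and 0.346% of replicate 2. Of the hnRNP M windows, 1.79% and 1.67% of replicate 1 and 1.48% and 2.80% of replicate 2 overlapped windows of the 2 FOX2 libraries. In the other direction, 0.132% to 0.950% of the FOX2 windows overlapped an hnRNP M window. These shares also depend on the length of the list they are set against, and the FOX2 lists were longer than that of hnRNP M replicate 2, so they give no order between proteins.

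Counts were therefore summed over whole transcripts. Over the 7189 transcripts tested, Pearson's r of log2(CPM + 1) was 0.58 between the FOX2 libraries, 0.41 between the hnRNP M libraries and 0.31 to 0.42 between proteins; these values run across transcripts, which are not independent replicates, and move with depth. Of the 1331 transcripts with at least 10 counts in both hnRNP M libraries, 97.9% were listed in both FOX2 libraries. Of the 3272 transcripts with at least 10 counts in both FOX2 libraries, 54.2% were listed in both hnRNP M libraries and 10.3% in neither. At this minimum the hnRNP M set lay almost wholly within the deeper FOX2 set.

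A minority of transcripts was favoured by one protein. FOX2 was higher at 58 of 7189 transcripts (0.807% of those tested) and hnRNP M at 4 (0.0556%), by edgeR's quasi-likelihood test with Benjamini-Hochberg adjustment at a threshold of 0.05. In all, 0.862% passed, while 9.29% had an unadjusted p under 0.05. By position of the libraries alone, both FOX2 values lay above both hnRNP M values at 24.8% of the transcripts and below them at 17.5%. The 58 transcripts lay in 56 separate stretches of the genome. In a fit of the 4 WT libraries alone, 65 transcripts were higher in FOX2 and 18 in hnRNP M, and edgeR's robust option gave 80 and 15. The numbers on both sides thus moved with the fit. The test rested on both hnRNP M libraries: 0 transcripts passed without hnRNP M replicate 1 (398 at an unadjusted p under 0.05), and 14 passed, all higher in FOX2 and 7 of them among the 58, without hnRNP M replicate 2. With TMM scaling, 102 transcripts were higher in FOX2, including 57 of the 58, and 0 in hnRNP M, and the median log2 difference over all transcripts moved from 0.0 to 0.62. When the number of windows was tested in place of their counts, the split turned to 3 higher in FOX2 and 17 higher in hnRNP M.

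**Figure D1:**
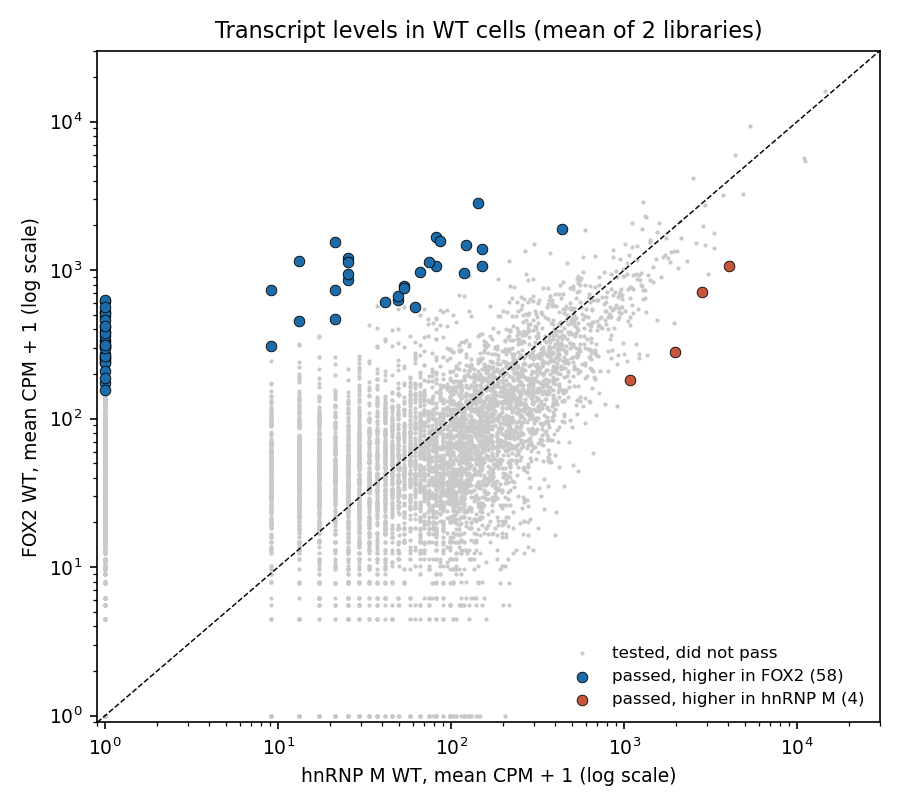
Mean CPM + 1 of the 2 FOX2 WT libraries (vertical, log scale) against that of the 2 hnRNP M WT libraries (horizontal, log scale) for the 7189 tested transcripts; the dashed line marks equal levels. The 58 transcripts higher in FOX2 lie far above the line, 30 of them at the left edge where hnRNP M is listed at 0, while the 4 transcripts higher in hnRNP M lie below it at high levels in both proteins.

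The FOX2-favoured transcripts were well covered by FOX2 and at low levels or listed at 0 in hnRNP M. Their mean FOX2 level ran from 156 to 2834 CPM with a median of 517. At 30 of the 58, hnRNP M was listed at 0 in both libraries, with 52 at 0 in hnRNP M replicate 1 and 31 at 0 in replicate 2. Over all 7189 transcripts tested, 1403 were at 0 in both, 4190 in replicate 1 and 1752 in replicate 2. At the level seen in FOX2, the 30 at 0 in both would have had a median of 19.3 counts in hnRNP M replicate 1 and 38.6 in replicate 2. The lowest values were 9.59 and 19.2. The lowest value for replicate 1 is close to that library's most frequent count for a single window. Positions were listed singly, and the 58 had a median of 15 and 23 windows in the 2 FOX2 libraries. Such totals spread over several windows could go unlisted, so they do not decide whether the zeros reflect less contact. For the other 28, mean FOX2 CPM was 4.34 to 94.4 times the mean hnRNP M CPM, with a median ratio of 16.9. In TDP43 WT libraries the median level of the 58 was 38.4 CPM, and 34 of them had less than 10% of their FOX2 level in those libraries. The same held for 579 of all 7189 transcripts tested. The 58 passed for high FOX2 levels, and this ratio divides by that level, so the 2 shares cannot be compared.

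The transcript with the smallest p was ENST00000379370.2, whose windows lay at chr1:967664-990614 (hg19, plus strand). It had 479 and 1004 counts in FOX2 and 0 and 35 in hnRNP M. Its mean level was 2834 ± 911 CPM in FOX2 and 142 ± 200 CPM in hnRNP M (SD, n = 2 each), a 20.0-fold difference (log2 difference 4.19 ± 0.65 SE, edgeR adjusted p = 9.28e-05). Both FOX2 libraries lay above both hnRNP M libraries. TDP43 was also high on this transcript, at 2203 ± 757 CPM. ENST00000461111.1, at chr1:987542-989432 within the same span and on the same strand, had 69 and 271 counts in FOX2 and 0 and 0 in hnRNP M (edgeR adjusted p = 0.000107). In that shorter span, other transcript labels held 445 and 858 FOX2 counts and 0 and 9 hnRNP M counts, so these 2 transcripts share one stretch and are not separate findings.

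The 12 transcripts named by the largest fitted difference were all listed at 0 in both hnRNP M libraries. For such transcripts the size of the fitted difference depends on a prior count, so counts and adjusted p are given without a fold. Besides ENST00000461111.1, 3 of the 12 carried most of their FOX2 counts at positions without an intron number. ENST00000375630.2 (chr13:113442690-113540208, plus strand) had 105 and 216 FOX2 counts, 1.25% of them intronic (edgeR adjusted p = 0.000121). ENST00000423278.1 (chr22:27067249-27069749, plus strand) had 74 and 199 FOX2 counts, none of them intronic (edgeR adjusted p = 0.00034). ENST00000574671.1 (chr17:79478709-79478755, minus strand) had 87 and 104 FOX2 counts in a span of 0.047 kb (edgeR adjusted p = 0.00429). This last transcript held the tallest site of the 3: its highest window had 42 counts in FOX2 replicate 1 and 35 in replicate 2. In WT cells, the hnRNP M antibody recovered no listed window on any of them.

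The other 8 of the 12 carried their FOX2 counts in introns, with 95.9% to 100.0% of the counts of each transcript in 1 intron. ENST00000576250.1 (chr16:3104022-3109142, minus strand) had 95 and 202 FOX2 counts, 97.98% of them in its first intron (edgeR adjusted p = 0.000269). ENST00000294618.7 (chr19:11311394-11343226, minus strand) had 94 and 176 FOX2 counts, 96.7% of them in intron 26 (edgeR adjusted p = 0.000166). ENST00000359315.5 (chr19:513544-514579, plus strand) had 95 and 157 FOX2 counts, 100.0% of them in its first intron (edgeR adjusted p = 0.000276). These values show transcripts on which a single intron held nearly all FOX2 contacts. ENST00000438964.2 (chr14:69345815-69346219, minus strand) had 55 and 192 FOX2 counts within 0.405 kb of intron 3. ENST00000450766.1 (chr13:114536726-114537344, minus strand) had 50 and 142 within 0.619 kb of intron 7. In both, replicate 2 was the higher library in CPM too. The groups did not overlap, which the rule for naming required.

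The remaining 3 were ENST00000508582.2, ENST00000431569.1 and ENST00000589054.1. ENST00000508582.2 (chr20:62299098-62325239, plus strand) had 61 and 158 FOX2 counts, and ENST00000431569.1 (chr3:197895148-197896247, plus strand) had 54 and 150. ENST00000589054.1 (chr18:55833340-56050710, plus strand) had 87 and 127 FOX2 counts spread over 217 kb of its first intron. Other transcript labels within its span held 54 and 76 hnRNP M counts and 155 and 147 FOX2 counts. Among the other named FOX2 transcripts, other labels in the span held hnRNP M counts at ENST00000461111.1, as given above, and at ENST00000508582.2, with 0 and 3. At these transcripts the zero in hnRNP M depends on which transcript the authors' annotation assigned to a position.

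**Figure D2:**
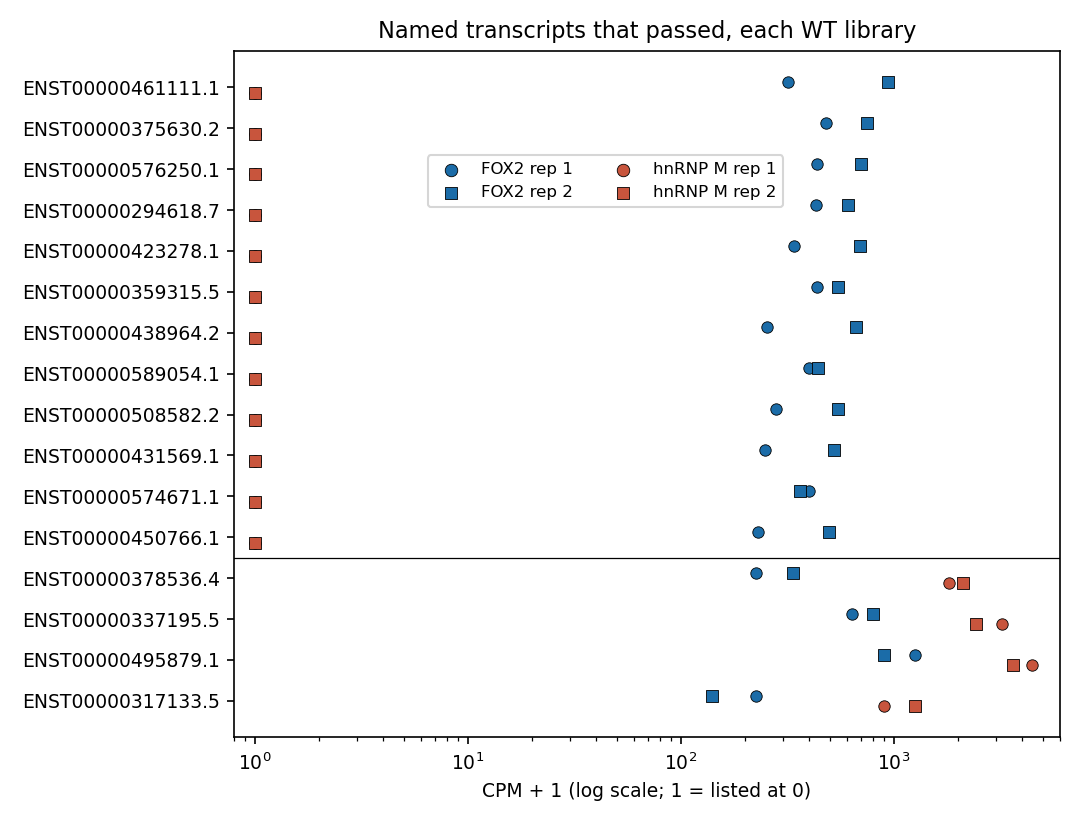
CPM + 1 (log scale) of the 16 named transcripts that passed, with 1 point for each FOX2 (blue) and hnRNP M (red) WT library; circles are replicate 1 and squares replicate 2. Above the horizontal line both hnRNP M points coincide at 1, meaning listed at 0; below it, the hnRNP M points lie to the right of the FOX2 points in all 4 transcripts and FOX2 is listed in both libraries.

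Introns were tested in the same way. FOX2 was higher at 57 of 7750 introns tested (0.735%) and hnRNP M at 6 (0.0774%), with edgeR's test and threshold as above, and 0.813% passed in all. An unadjusted p under 0.05 was found at 9.56%. Without hnRNP M replicate 1, 1 intron passed (444 at an unadjusted p under 0.05). Without hnRNP M replicate 2, 5 passed, and without FOX2 replicate 1 or 2, 39 and 22 passed. The 57 introns belonged to 56 transcripts. hnRNP M was listed at 0 in both libraries at 34 of them, and 47 had less than 10% of their FOX2 level in TDP43. Over all 7750 introns tested, these numbers were 1772 and 1176. The TDP43 shares cannot be compared, since the 57 passed for the high FOX2 levels by which the ratio divides.

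Intron 9 of ENST00000288398.6 (chr15:63356861-63358085, plus strand) carried the tallest replicated FOX2 site among the 8 named introns. It had 195 and 276 FOX2 counts and was listed at 0 in both hnRNP M libraries (924 ± 45.6 CPM in FOX2, SD, n = 2; edgeR adjusted p = 3.63e-05). A single window there, centred on position 63357484, had 87 and 105 counts in the 2 FOX2 libraries. Introns 1 and 8 of the same transcript had 25 and 114, and 70 and 62, FOX2 counts, against 0 and 0, and 0 and 9, for hnRNP M. Intron 2 differed from these, with 43 and 26 FOX2 counts and 33 and 23 hnRNP M counts. The hnRNP M libraries therefore did list this transcript, in another intron.

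Intron 29 of ENST00000360467.5 (chr13:111126381-111127503, plus strand) had 164 and 362 FOX2 counts and 0 and 0 in hnRNP M (edgeR adjusted p = 5.68e-05). Intron 2 of ENST00000299727.3 (chr18:74970092-74979442, plus strand) had 144 and 269 FOX2 counts (edgeR adjusted p = 0.00121). Intron 5 of ENST00000375441.3 (chr13:113885264-113887345, plus strand) had 94 and 213 (edgeR adjusted p = 0.00123). In this last transcript hnRNP M was listed at 0 and 32 counts in intron 2 and at 0 and 16 in intron 3, where FOX2 had 12 and 0, and 0 and 7. Intron 13 of ENST00000595437.1 (chr13:99051634-99060304, plus strand) had 100 and 176 FOX2 counts and none in hnRNP M. The other 3 named introns were those of ENST00000576250.1, ENST00000294618.7 and ENST00000359315.5 described above.

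All 4 hnRNP M-favoured transcripts were also listed in both FOX2 libraries, at lower levels. The listing is no trait of these 4. Of the 141 transcripts with at least 50 counts in both hnRNP M libraries, 100% were listed in both FOX2 libraries. ENST00000378536.4 (chr1:2160650-2238711, plus strand) had 49 and 97 counts in FOX2 and 112 and 260 in hnRNP M. Its mean level was 280 ± 79.2 CPM in FOX2 and 1962 ± 204 CPM in hnRNP M (SD, n = 2 each), 7.01-fold higher in hnRNP M (log2 difference -2.80 ± 0.56 SE, edgeR adjusted p = 0.00186). The 2 hnRNP M libraries lay close together and far above both FOX2 libraries. TDP43 lay in between, at 1306 CPM. Of the hnRNP M counts, 98.1% were in the first intron.

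ENST00000337195.5 (chr10:126694494-126847268, minus strand) had 138 and 229 FOX2 counts and 198 and 301 hnRNP M counts, or 712 ± 115 against 2825 ± 548 CPM (3.97-fold, edgeR adjusted p = 0.0261). ENST00000495879.1 (chr3:61547646-61756690, plus strand) had 273 and 259 FOX2 counts and 274 and 446 hnRNP M counts, or 1073 ± 248 against 4029 ± 590 CPM (3.76-fold, edgeR adjusted p = 0.0334). ENST00000317133.5 (chr13:111808836-111937337, plus strand) had 49 and 40 FOX2 counts and 55 and 155 hnRNP M counts, or 181 ± 60.4 against 1074 ± 257 CPM (5.92-fold, edgeR adjusted p = 0.041). Other transcript labels within its span held 30 and 26 FOX2 counts and 0 and 17 hnRNP M counts, so its fold depends on the annotation too. In all 4 transcripts TDP43 lay between the 2 proteins, and 95.6% to 100.0% of the hnRNP M counts were intronic. These calls depended on the scale and on single libraries: TMM kept 0 of the 4, DESeq2 kept 1, no filter kept 1, and windows of at least 5 counts kept 0. Leaving out FOX2 replicate 1 kept 0 and leaving out FOX2 replicate 2 kept 1, as leaving out either hnRNP M library kept 0. The number of windows kept all 4, with 13 and 77 windows in hnRNP M against 14 and 28 in FOX2 for ENST00000378536.4.

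Below the threshold, the next 6 transcripts by p on the hnRNP M side had edgeR adjusted p from 0.0525 to 0.0595 and did not pass. ENST00000522684.1 (chr8:141680158-142006151, minus strand) had 117 and 101 FOX2 counts and 145 and 190 hnRNP M counts. Other transcript labels within its span held 117 and 167 FOX2 counts and 0 and 10 hnRNP M counts. ENST00000393799.2 (chr11) had 74 and 57 against 102 and 128, and ENST00000372037.3 (chr10) had 63 and 64 against 78 and 144. In CPM, hnRNP M was the higher protein in each. ENST00000455972.1 (chr9) had 25 and 37 FOX2 counts and 75 and 74 hnRNP M counts, and ENST00000268035.6 (chr15:99193608-99506221) had 208 and 268 against 176 and 401. The mitochondrial transcript ENST00000361567.2 had 0 and 7 FOX2 counts and 16 and 41 hnRNP M counts. The windows of the 5 nuclear transcripts spanned 66.2 to 326 kb and were nearly all intronic.

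Among introns, hnRNP M was higher at 6. The third intron of ENST00000341776.2 (chr6:15411425-15450785, plus strand) had 56 and 56 FOX2 counts and 170 and 168 hnRNP M counts, or 225 ± 43.9 against 2060 ± 989 CPM (SD, n = 2 each; 9.15-fold, edgeR adjusted p = 0.00169). It stood out within its transcript, since it held 4.52% and 3.77% of the transcript's FOX2 counts but 21.4% and 14.4% of its hnRNP M counts. Intron 31 of ENST00000522684.1 (chr8:141942626-142006151) had 18 and 28 against 57 and 86 counts (9.04-fold, edgeR adjusted p = 0.0206). Other labels within that span held 48 and 60 FOX2 counts and 0 and 0 hnRNP M counts. The fold there thus depends on which transcript the authors' annotation assigned to a position. The first introns of ENST00000378536.4 and ENST00000495879.1 also passed, at edgeR adjusted p of 0.00123 and 0.0152. TMM scaling and DESeq2 each kept 0 of the 6, and leaving out FOX2 replicate 1 or 2 kept 1 each.

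The 2 sets of favoured RNAs were laid out differently, each described in the libraries of its own protein and with no test. The named FOX2 transcripts had windows over a median span of 2.196 kb and the 10 named on the hnRNP M side over 152.9 kb, and a share within a fixed length depends on the span. FOX2-favoured transcripts were compact. A median of 67.6% and 64.7% of their counts in the 2 FOX2 libraries fell in the densest 500 nt, and in 42 of 58 this share was over 50% in both libraries. The 57 FOX2-favoured introns had medians of 78.5% and 77.2%. The 4 hnRNP M-favoured transcripts were spread, with medians of 12.8% and 6.54% in the 2 hnRNP M libraries, and in 0 of them did the share exceed 50%. Their highest hnRNP M windows, of 12 to 14 counts, were all in replicate 1, and only that of ENST00000337195.5 was listed in replicate 2, at 2 counts. Of the 12 named FOX2 transcripts, 8 had their highest window in both FOX2 libraries.

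**Figure D3:**
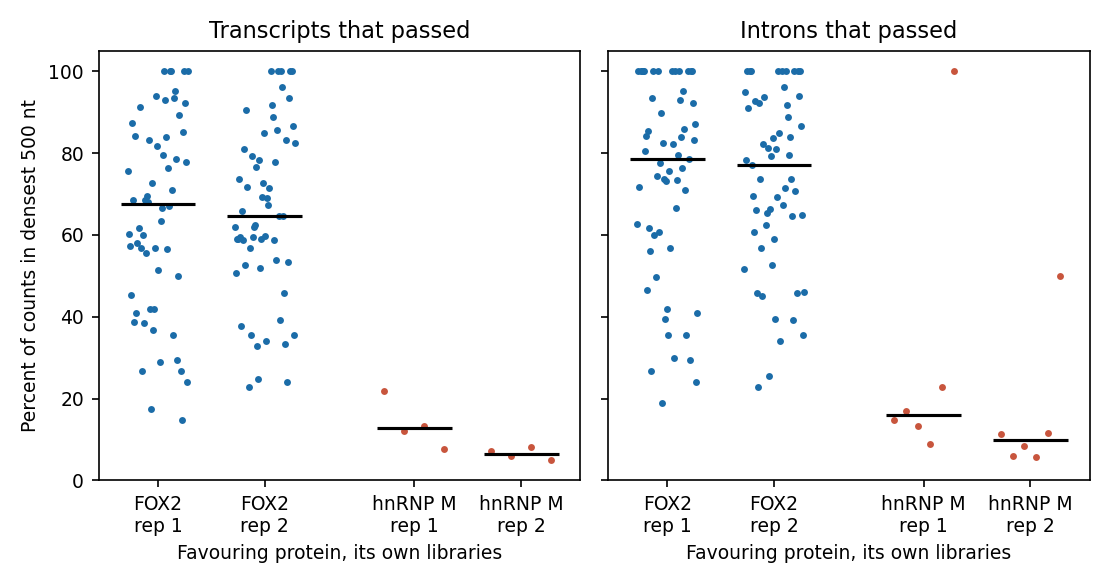
Percentage of a transcript's (left) or intron's (right) counts that fell in its densest 500 nt, for those that passed, in each library of the protein that was higher; points are transcripts or introns and black lines are medians. FOX2-favoured points are mostly above 50%, while the hnRNP M-favoured transcripts lie at 21.8% or below; the hnRNP M intron at 100% and 50% is intron 17 of ENST00000549804.2.

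The spread layout on the hnRNP M side was seen for both proteins. On ENST00000378536.4 the densest 500 nt held 18.4% and 11.3% of the FOX2 counts and 13.4% and 8.08% of the hnRNP M counts. On ENST00000495879.1 it held 8.42% and 4.25% of the FOX2 counts and 7.66% and 4.93% of the hnRNP M counts. Compactness was also not a trait of FOX2 lists at large. Over the 130 transcripts with at least 50 counts in all 4 libraries, the median share in the densest 500 nt was 9.20% and 8.96% for FOX2 and 18.8% and 8.40% for hnRNP M. In hnRNP M replicate 1 these transcripts had a median of 9 windows, against 34 in replicate 2 and 59 and 68.5 in FOX2, and the share depends on that number. On 24 of the 130 both FOX2 libraries were the more concentrated, and on 46 both hnRNP M libraries were.

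Of 1501 transcripts with at least 2 introns tested, 15 had introns on both sides at an unadjusted p under 0.05, and 0 did after adjustment. Of the 15, 2 are described, chosen after their values were seen, and in both the intron on the FOX2 side did not pass. The first was ENST00000549804.2 (chr15:25296947-25367137, plus strand), which lies in the Prader-Willi region of chromosome 15, known as background for the SPA RNAs in the P-KO label. Its total was 0.779% and 1.09% of FOX2 window counts and 0.544% and 0.530% of hnRNP M counts, and it did not pass as a whole (edgeR adjusted p = 0.596). Intron 4 held 1349 and 2500 FOX2 counts, or 79.1% and 79.6% of the transcript's FOX2 counts, against 98 and 180 hnRNP M counts, or 29.3% and 27.5%. By level, intron 4 did not pass (edgeR adjusted p = 0.0805). Intron 17 (chr15:25336932-25338746) was listed at 0 in both FOX2 libraries and had 25 and 60 hnRNP M counts (edgeR adjusted p = 0.035). Its highest window had 9 and 24 counts in the 2 hnRNP M libraries, a site found in both. Intron 15 held 4.63% and 2.07% of the transcript's FOX2 counts and 25.97% and 12.5% of its hnRNP M counts, and did not pass (edgeR adjusted p = 0.549).

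ENST00000378330.2 (chr16:89338650-89555055, minus strand) was the second. Intron 9 held 92 and 523 FOX2 counts, 43.8% and 69.5% of the transcript, against 25 and 50 hnRNP M counts, 12.5% and 12.0% (edgeR adjusted p = 0.435, not passing). In CPM this was 421 and 1812 for FOX2 and 406 and 405 for hnRNP M, so that the FOX2 side rested on replicate 2. Intron 11 held 49 and 103 FOX2 counts, 23.3% and 13.7%, against 100 and 215 hnRNP M counts, 50% and 51.4% (edgeR adjusted p = 0.0199). The shares of both introns did not overlap between proteins, and those of hnRNP M were the closer pair.

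**Figure D4:**
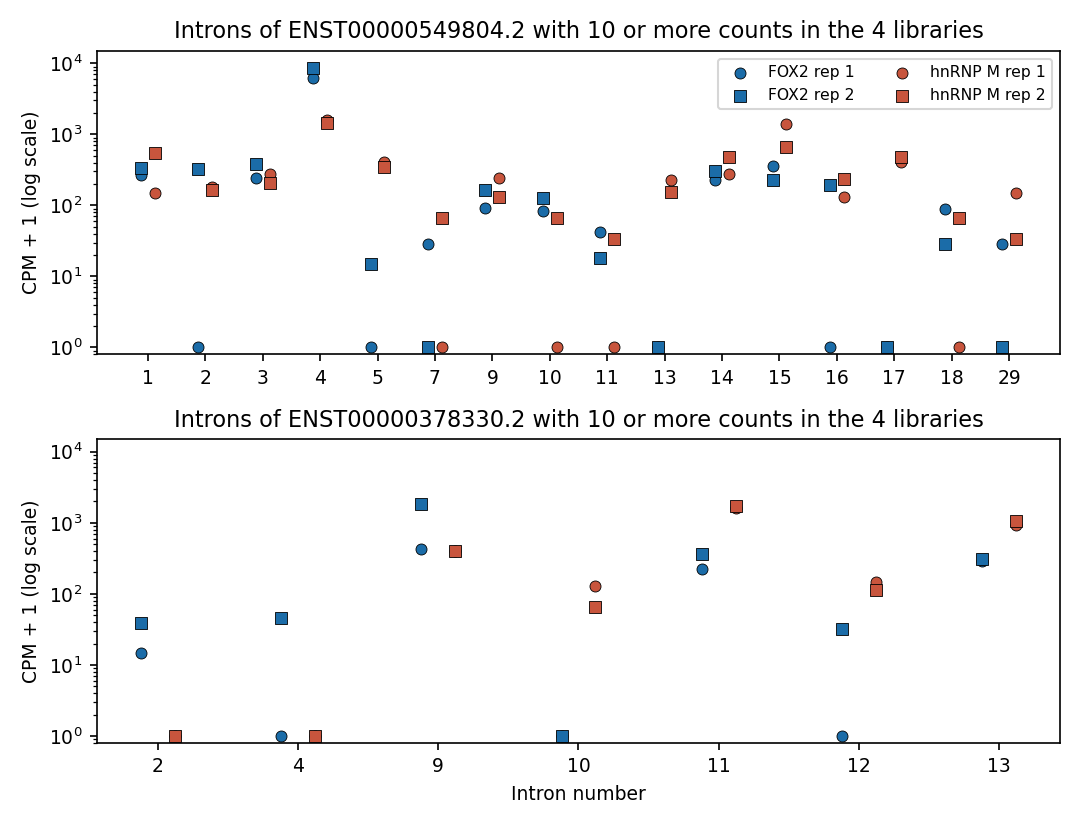
CPM + 1 (log scale) per intron of ENST00000549804.2 (top) and ENST00000378330.2 (bottom) in the 2 FOX2 (blue) and 2 hnRNP M (red) WT libraries, for introns with 10 or more counts over the 4 libraries; 1 means listed at 0. FOX2 is highest at intron 4 of the first and at intron 9 of the second, where only FOX2 replicate 2 lies far above hnRNP M. hnRNP M is higher than FOX2 at introns 15 and 17 of the first and at intron 11 of the second.

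Most of the highest transcripts were common to both proteins. Of the 10 highest per protein, ENST00000607521.1 on GL000220 came first in both by the mean of 2 libraries, but not in hnRNP M replicate 1, with 1.01% and 2.18% of FOX2 counts and 0.242% and 2.67% of hnRNP M counts. ENST00000513200.3 (chr5:93489613-93948350) had 0.608% and 0.580% of FOX2 counts and 0.531% and 0.342% of hnRNP M counts. ENST00000341776.2 (chr6:15246606-15521728) had 0.566% and 0.514% of FOX2 counts and 1.29% and 0.945% of hnRNP M counts, and did not pass as a whole (edgeR adjusted p = 0.180). ENST00000552781.1 (chr15:25267184-25298425) was among the 10 highest for hnRNP M and not for FOX2, with 0.462% and 0.364% against 0.116% and 0.112% for FOX2. It did not pass either (edgeR adjusted p = 0.112), though its groups did not overlap. In the FOX2 list ENST00000379370.2 passed, in the hnRNP M list ENST00000495879.1 did, and the other transcripts of the 2 lists did not.

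The same contrast was made between the P-KO libraries, whose counts enter the WT contrast only through the shared spread and the filter. There, 169 transcripts (2.35% of those tested) were higher in FOX2 and 94 (1.31%) in hnRNP M by edgeR's test; TMM scaling turned this split to 501 and 7. Of the 58 FOX2-favoured transcripts in WT, 52 also passed in P-KO in the same direction and all 58 had the same sign, against 62.2% of all transcripts tested. All 4 hnRNP M-favoured transcripts passed again. In P-KO, 1.82% of the introns tested were higher in FOX2 and 0.645% in hnRNP M; of the introns that passed in WT, 52 of 57 and 3 of 6 passed again in the same direction. The P-KO libraries shared the antibodies with the WT libraries, and the recurrence is not independent of the WT test: without hnRNP M P-KO replicate 1, 93 and 13 transcripts passed in WT, and without replicate 2, 94 and 12. hnRNP M P-KO replicate 1 resembled hnRNP M WT replicate 1 in its windows, with 48.4% of them at 8 to 10 counts.

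Named values show the recurrence. ENST00000375630.2 had 304 and 1407 FOX2 counts and 0 and 0 hnRNP M counts in P-KO, and intron 9 of ENST00000288398.6 had 421 and 1197 against 0 and 0. ENST00000378536.4 had 72 and 293 FOX2 counts against 81 and 155 hnRNP M counts, a log2 difference of -2.38 (edgeR adjusted p = 0.00545). Intron 17 of ENST00000549804.2 was listed at 0 in all 4 P-KO libraries of the 2 proteins, so the contrast had no value there. Low P-KO counts were not confined to that intron. Intron 4 of this transcript had 0 and 94 FOX2 counts and 0 and 0 hnRNP M counts in P-KO. A test of the difference between the WT and the P-KO contrast passed at 2 transcripts (0.0278% of those tested) by edgeR, and at 0 introns, where 629 had an unadjusted p under 0.05.

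**Figure D5:**
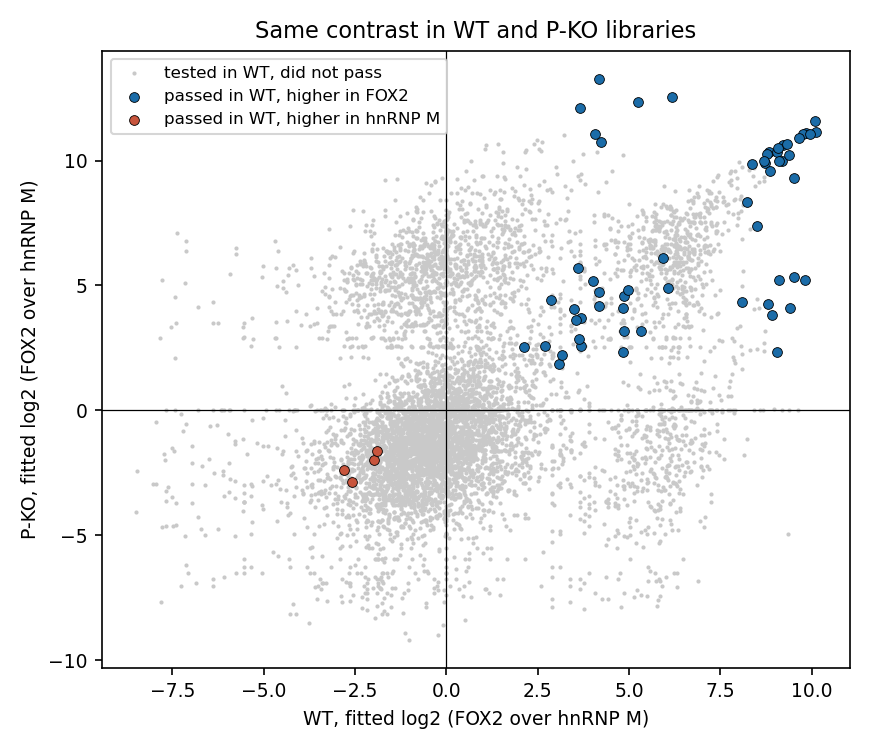
Fitted log2 difference (FOX2 over hnRNP M) in P-KO libraries (vertical) against that in WT libraries (horizontal) for the tested transcripts; blue and red points passed in WT. All 58 blue points have positive values on both axes and all 4 red points negative ones; the largest values rest on groups listed at 0, and their size depends on the prior count.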

How the data were processed

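The submitters' processing notes name Bowtie and the build GRCh37 (hg19), and the method that called positions was not given in the sources read. The authors deposited for every library a list of nucleotides, each with a raw count and a p-value (possibly a q-value). Whether a count is of reads or of collapsed cDNAs is not stated. No count under 2 was listed. Window counts per library (61625 to 288698 in the 4 WT libraries) were summed per transcript and per intron. All 12 libraries were fitted together in edgeR 4.0.16 (R 4.3.3; filterByExpr, library totals as offsets, quasi-likelihood F test, Benjamini-Hochberg); single values were compared by exact permutation (Python 3.11.15, scipy 1.17.1). The fits were tested on simulated counts. DESeq2 1.42.0, TMM, other filters, positions, spacings and left-out libraries were alternatives. Named transcripts (12 per direction) and introns (8) had the largest differences among those that passed, did not overlap between groups and had a mean of at least 10 counts; with under 5 passing, the 10 of smallest p were named. The 10 highest transcripts per protein were also named; those described for differing introns, for the difference between genotypes or as having the smallest p were chosen after their values were seen. Comparisons and lists were chosen with earlier results of these data known. Planned gene lists, marker lists and motif searches were not run, since no symbols for these transcripts and no hg19 genome were used here. Of 703766 kept positions, 1853 carried different labels in different libraries.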

Additional observations from a re-analysis of the deposited data

Results flagged for a closer look

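At 2 transcripts the FOX2 to hnRNP M contrast differed between WT and P-KO by a test of the difference itself. At ENST00000379370.2 the WT contrast minus the P-KO contrast was -9.08 on the log2 scale (edgeR adjusted p = 0.0221). The FOX2 counts were 479 and 1004 for WT, against 1188 and 3943 for P-KO. The hnRNP M counts were 0 and 35 for WT, and neither P-KO library listed the transcript. At ENST00000511029.1 (chr5:25406774-25422953, minus strand) the difference was -9.31 (edgeR adjusted p = 0.0407). The FOX2 counts were 77 and 55 for WT, against 167 and 279 for P-KO. The hnRNP M counts were 11 and 20 for WT, and again neither P-KO library listed it. The size of both differences therefore depends on the prior count of the fit. The mean hnRNP M levels in WT were 142 and 170 CPM, and the hnRNP M P-KO libraries held only 62030 and 58191 window counts. At those levels few counts would be expected in either P-KO library, and they could go unlisted. The zeros thus do not decide whether hnRNP M contact differed between the genotypes. In edgeR, TMM scaling, a minimum of 20 counts in 2 libraries, and leaving out hnRNP M P-KO replicate 1 each gave 0 such transcripts (568, 389 and 678 at an unadjusted p under 0.05).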

How the results depend on the processing

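The hnRNP M libraries limit the comparison. They were the shallowest, and windows of 8 to 10 counts made up 45.5% of the list of WT replicate 1. The lists also leave out positions by criteria not stated in the sources used here. The 62 transcripts that passed in WT became 192 with DESeq2, 102 with TMM, 95 with edgeR's robust option, 31 with windows of at least 5 counts and 20 by number of windows, where the direction turned. The 63 introns became 183, 167, 7 and 2 with DESeq2, TMM, windows of at least 5 counts and number of windows (the direction turned again). They became 33 with no filter, 36 with at least 20 counts in 2 libraries, 123 with the 4 WT libraries only (79 higher in FOX2 and 44 in hnRNP M), 118 with these in DESeq2, and 96 without the TDP43 libraries. The last 2 settings, and joining overlapping transcripts, were chosen after seeing the data. The 263 transcripts of the P-KO contrast became 754 with DESeq2, 508 with TMM, 121 with no filter, 13 with windows of at least 5 counts and 0 by number of windows (554 at an unadjusted p under 0.05, edgeR). The 2 transcripts whose contrast differed between genotypes became 26 with DESeq2, 6 with the robust option, 4 with intron positions only, 1 without the TDP43 libraries, and 0 in edgeR with TMM, at least 20 counts in 2 libraries, number of windows, windows of at least 5 counts, spacing of 21 nt or joined transcripts (100 to 702 at an unadjusted p under 0.05). The cause of these changes was not tested. Median log2 differences moved with TMM from 0.0 to 0.62 (WT) and from -0.43 to 0.94 (P-KO).

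Leaving out each library in turn gave 0 to 106 transcripts and 1 to 92 introns in WT, 104 to 320 transcripts in P-KO, where without hnRNP M P-KO replicate 2 hnRNP M led with 175 against 145, and 0 to 7 for the difference. The mean difference ranged from -6.37 to 0.318 points for the intron share, from -2.23 to 0.566 for the 10 highest transcripts and from -5.60 to -0.967 for the count per window. With windows of at least 5 counts the last 2 turned to 12.3 points and 1.43 counts, and the intron share difference grew to -16.5 points. The mean share of hnRNP M windows overlapping FOX2, 1.94%, was 2.72% at 21 nt spacing, 1.23% with centres within 5 nt, and 1.64% to 2.24% with a library left out. Every named transcript and intron kept its direction under each alternative that gave it a value, and joined transcripts were not examined singly. The named FOX2 transcripts and introns were listed at 0 in both hnRNP M libraries. No refit of these counts could turn their direction, so its constancy adds no support. In settings other than left-out libraries, 35 fits of named transcripts and 50 of named introns no longer passed, while 35 of named transcripts newly passed.

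Libraries shared replicate numbers across groups, and same-numbered libraries deviated together only weakly. The correlation of their deviations was 0.0255 between FOX2 and hnRNP M WT. Between any 2 groups it was positive and ran from 0.00132 to 0.061. With the replicate block, 106 transcripts (89 higher in FOX2 and 17 in hnRNP M) and 100 introns (85 and 15) passed in WT, and 8 transcripts for the difference between genotypes. Sums per gene symbol and motif shares were not run.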
